A study of Mus musculus with 6 samples.

Results

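The genes described are Trp53, which encodes the tumour suppressor p53, and 9 of its known target genes, Mdm2, Cdkn1a, Btg2, Plk2, Ccng1, Bax, Bbc3, Sesn1 and Sesn2. The members were taken by gene symbol, and each symbol had 1 Ensembl gene ID in every library, so that 10 of the 21769 gene IDs listed in all 6 libraries belong to the set. All 10 passed the minimum mean level of 1 FPKM (fragments scaled to the length of the transcript and the depth of the library) that 10976 genes passed. The cells were 3T3-L1, an embryonic mouse fibroblast line of wild-type genotype per the labels, given a differentiation protocol with insulin for adipocytes until day 8. Chronic intermittent hypoxia (CIH), repeated spells of low oxygen, was given to the cells of 3 libraries (CIH 1, 2 and 3), and 3 libraries were controls (control 1, 2 and 3). All groups share the line, the medium with 10% serum and the maintenance insulin of 0.1 µM. The sources used here give neither the oxygen levels nor the cycle lengths. Nothing in the labels says that libraries came from separate cultures, and a p-value then reflects only how much these libraries vary, which may be technical.

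p53 is a transcription factor that is kept scarce in unstressed cells because the ubiquitin ligase encoded by Mdm2, itself a p53 target, marks it for destruction. After DNA damage and other stresses the protein is stabilised, largely without a change in its own messenger RNA, and it then switches on genes that stop the cell cycle, repair DNA, restrain growth or start apoptosis. In fat cells and their precursors p53 is known for restraining differentiation and for its part in the senescence of fat tissue in obesity. Expression of p53 targets is also set by other regulators, so a target's messenger RNA is not a reading of p53 activity by itself.

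Trp53, Plk2 and Bax rose in CIH 1 and 2, Btg2 and Sesn1 fell, and Mdm2, Cdkn1a, Ccng1, Bbc3 and Sesn2 were not called. In CIH 3, 9 members were listed above control 3 and 1, Btg2, below it; Cdkn1a was below it too by the median of ratios and by its largest entry. Among all genes 61.9% were higher in CIH 3. Trp53, Plk2, Bax and Btg2 therefore had the same direction in both comparisons, while Sesn1 was lower in CIH 1 and 2 and higher in CIH 3. A fit of whether changes differ between the comparisons is not given. CIH 3 and control 3 are 1 library each and hold no spread of their own, so it could not test this soundly.

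Replicates 1 and 2 were deposited as tables with 1 value per gene and replicate 3 as tables with 1 to 4 entries for each member, here summed per gene. A level in one kind of table cannot be set against a level in the other, so CIH 1 and 2 were compared with control 1 and 2, and CIH 3 with control 3. From the steps of their values, CIH 1 and 2 and control 1 and 2 held 25700000 to 28000000 fragments each; the depth of CIH 3 and control 3 is unknown. Adipocyte markers were present in the gene tables, where the summed FPKM of 12 white adipocyte genes was 7798 and 6915 in CIH 1 and 2, against 8178 and 8873 in control 1 and 2. The same sum was 579 in CIH 3 and 28328 in control 3. Of the 11 tested adipocyte markers, 6 fell in CIH 1 and 2, and in the other pair all 11 were at least 2-fold lower in CIH 3; leptin was low throughout, at 0.0114 to 0.0533 FPKM in the gene tables. Summed levels of 10 preadipocyte and fibroblast genes were 577 and 575 FPKM in CIH 1 and 2 and 368 and 389 FPKM in control 1 and 2, against 5006 FPKM in CIH 3 and 836 FPKM in control 3. The adipocyte gene Cfd fell (log2 change -3.47, adjusted p = 0.000746), as did Retn and Slc2a4 (-3.00 and -1.88, adjusted p = 0.000516 and 0.000746). The fibroblast genes Thy1, Vim and Pdgfrb rose (1.32, 0.95 and 0.78, adjusted p = 0.0013, 0.00231 and 0.0068), and Ly6a and Pdgfra fell (-0.52 and -0.31, adjusted p = 0.0159 and 0.0342). Of 9 preadipocyte and fibroblast genes tested, 6 rose and 2 fell in CIH 1 and 2, all 9 were at least 2-fold higher in CIH 3, and the untested marker Cd34 was at 0 in CIH 1, CIH 2 and control 2. These markers move with every difference in CIH 3 given here, and their part in it was not tested; in bulk RNA, fewer cells of a type and less RNA per cell cannot be told apart.

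These 6 stretches of promoter are shown because they hold a pair of p53 decamers, a p53 decamer at members that rose, or a second motif shared by members that moved opposite ways. Each is the 250 bases before a RefSeq transcript start on GRCm38.p6, 5′ to 3′ on the gene's strand. The stretches are chr17:29090729-29090978 (+) for the upstream of the 2 starts of Cdkn1a, chr11:40755287-40755536 (-) for Ccng1, chr11:69580109-69580358 (+) for Trp53, chr7:45466899-45467148 (-) for Bax, chr13:110394794-110395043 (+) for Plk2 and chr1:134079156-134079405 (-) for Btg2. Capitals mark 2 abutting decamers, the repeated unit of the p53 response element, in Cdkn1a and Ccng1, 1 exact p53 decamer in Trp53 and Bax, and TGACGTCA, the cyclic AMP response element, in Plk2 and Btg2. A further exact decamer in the Cdkn1a stretch, GGACTAGCTT, is left in small letters.
Cdkn1a: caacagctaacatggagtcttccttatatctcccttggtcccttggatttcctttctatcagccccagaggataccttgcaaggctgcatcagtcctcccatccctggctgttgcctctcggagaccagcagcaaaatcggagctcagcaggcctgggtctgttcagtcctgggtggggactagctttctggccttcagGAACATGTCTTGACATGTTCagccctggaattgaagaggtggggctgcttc
Ccng1: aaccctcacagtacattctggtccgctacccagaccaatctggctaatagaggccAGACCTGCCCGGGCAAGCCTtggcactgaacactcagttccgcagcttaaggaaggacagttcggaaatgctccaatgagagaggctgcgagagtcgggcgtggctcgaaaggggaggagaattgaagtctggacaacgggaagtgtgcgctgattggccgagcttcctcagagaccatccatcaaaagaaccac
Trp53: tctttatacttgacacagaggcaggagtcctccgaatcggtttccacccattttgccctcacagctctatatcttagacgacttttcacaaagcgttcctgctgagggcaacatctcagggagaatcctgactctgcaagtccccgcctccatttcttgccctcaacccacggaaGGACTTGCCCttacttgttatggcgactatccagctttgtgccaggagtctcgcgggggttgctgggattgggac
Bax: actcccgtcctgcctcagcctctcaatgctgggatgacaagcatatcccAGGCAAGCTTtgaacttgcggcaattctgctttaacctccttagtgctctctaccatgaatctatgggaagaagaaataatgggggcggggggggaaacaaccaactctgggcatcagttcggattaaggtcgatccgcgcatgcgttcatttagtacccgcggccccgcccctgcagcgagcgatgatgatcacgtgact
Plk2: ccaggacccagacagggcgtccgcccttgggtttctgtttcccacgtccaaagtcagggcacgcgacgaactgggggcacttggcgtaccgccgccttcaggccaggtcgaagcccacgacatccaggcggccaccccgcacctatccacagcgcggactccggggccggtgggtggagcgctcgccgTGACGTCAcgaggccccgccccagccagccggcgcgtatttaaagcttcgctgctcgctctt
Btg2: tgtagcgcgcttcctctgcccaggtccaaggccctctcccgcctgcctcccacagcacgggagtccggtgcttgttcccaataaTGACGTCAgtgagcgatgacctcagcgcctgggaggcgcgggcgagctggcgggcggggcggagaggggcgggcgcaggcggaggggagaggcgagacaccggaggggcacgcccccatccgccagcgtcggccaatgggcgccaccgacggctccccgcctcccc
Both motifs read the same on either strand, and they do not overlap in these stretches. RefSeq gave 14 windows of 300 bases, from 250 before to 50 after a start, for the 10 members. A pair of abutting p53 decamers with at most 2 mismatches, keeping the C and G of each core, was found in 2 of the 14, against 0.326% of 32851 windows of all genes. These were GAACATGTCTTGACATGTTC at positions -51 to -32 before the upstream start of Cdkn1a and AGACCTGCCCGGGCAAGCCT at -195 to -176 before Ccng1, each with 1 mismatch. Neither Cdkn1a nor Ccng1 was called in CIH 1 and 2. An exact decamer was in 6 of 14 windows (42.9%), those of Cdkn1a, Ccng1, Trp53, Bax, Mdm2 and the downstream start of Sesn1, against 8.36% of all windows. In CIH 1 and 2 Trp53 and Bax rose, Sesn1 fell, and Cdkn1a, Ccng1 and Mdm2 were not called. Plk2, which rose, and Btg2, which fell, had no exact decamer. The members were taken as p53 and its known targets, so these shares are not independent of that choice, and some windows of Bbc3 overlap. TGACGTCA, searched for after the sequences had been read, was in the windows of Plk2, which rose, and Btg2, which fell, and in 1.79% of all windows. A match is a description of letters and shows no binding; p53 elements outside these windows, such as the one known in the first intron of Mdm2, were not searched.

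In CIH 1 and 2, limma called 3 of the 10 members higher and 2 lower at an adjusted p under 0.05. Among all 10976 genes 39.1% were called, 18.2% higher and 20.9% lower (12.5% and 28.7% with values scaled by library totals), and the members' share of calls is read against these. Fitting all 6 libraries with a replicate block called 0 members and 0 of all genes (limma; 4 members and 1123 genes at an unadjusted p under 0.05). The median log2 change of the members was 0.02, and that of all genes -0.01. Both CIH libraries lay above both controls for 3 members, below them for 4, and the groups overlapped for 3, where 35.1% and 38.9% of all genes lay wholly above and wholly below. For CIH 3, 4 members were at least 2-fold higher than in control 3 and 1 was at least 2-fold lower, against 21.8% and 11.8% of all genes; with 1 library a group this has no test. Scaled by library totals, 8 members were at least 2-fold higher and 0 at least 2-fold lower, against 42.3% and 6.11% of all genes. The members' median log2 difference there was 0.95, and that of all genes 0.26, a shift that became 0.83 when values were scaled by library totals and 0.00 by the median of ratios.

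**Figure D1:**
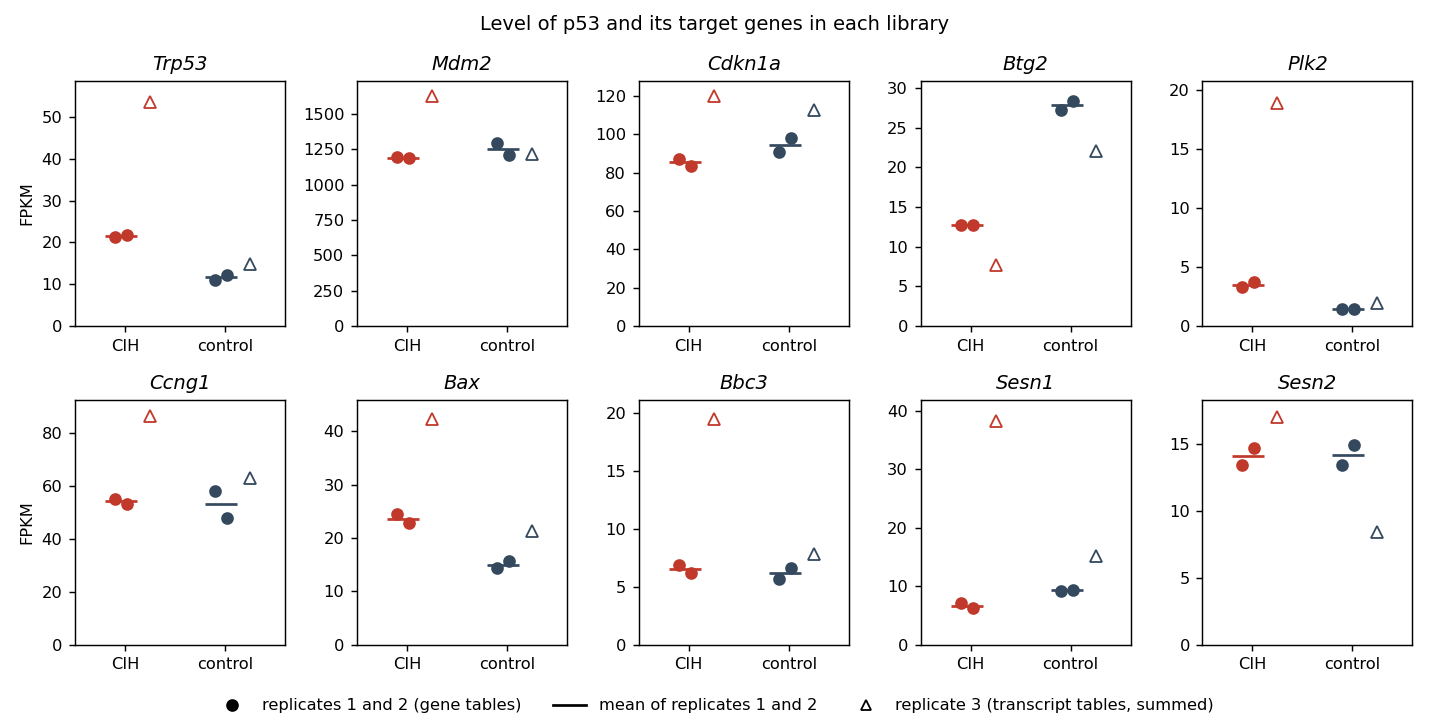
FPKM of p53 and 9 target genes in CIH (red, left) and control (dark, right) libraries, each panel with its own axis from 0; circles are replicates 1 and 2 with their mean as a line, open triangles replicate 3 from the transcript tables. Trp53, Plk2 and Bax are higher in all 3 CIH libraries than in their own controls and Btg2 is lower, while Sesn1 is lower in CIH 1 and 2 and higher in CIH 3.

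Trp53 (chromosome 11, 69580359 to 69591873, + strand; GENCODE M21 on GRCm38, as for all genes here) had 21.2 and 21.8 FPKM in CIH 1 and 2, against 11.1 and 12.3 FPKM in control 1 and 2. It was 53.7 FPKM in CIH 3 and 14.8 FPKM in control 3. All 3 CIH libraries were above their own controls with no overlap. In replicates 1 and 2 this was a 1.77-fold rise on the log2(FPKM + 1) scale used for all fold changes here, which understates the change of low genes (log2 change 0.83, SE 0.08, limma adjusted p = 0.00299). Behind it stood 2240 and 2420 fragments in CIH 1 and 2 and 1151 and 1396 in control 1 and 2. Among the tested genes of each library, Trp53 stood at percentiles 78.5 and 79.7 in CIH 1 and 2, and at 62.4 and 65.2 in control 1 and 2. In the transcript tables Trp53 has 4 entries, which carry no transcript name, and 1 of them held 49.1 FPKM in CIH 3 and 12.8 FPKM in control 3, or 91.4% and 86.6% of the gene.

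Mdm2 (chromosome 10, 117688875 to 117710758, - strand), the negative regulator of p53, was by far the most abundant member. It had 1192 and 1190 FPKM in CIH 1 and 2, against 1296 and 1207 FPKM in control 1 and 2. The CIH values lay just below the controls, by less than the test could separate (log2 change -0.07, 95% interval -0.45 to 0.31, adjusted p = 0.732). In CIH 3 it was 1628 FPKM and in control 3 1214 FPKM. Mdm2 ranked 19 and 17 of 10976 genes in CIH 1 and 2, and 16 and 17 in control 1 and 2. The transcript tables ranked it 29 in CIH 3 and 49 in control 3. Extra copies of Mdm2 have been described in the 3T3-L1 line; copy number was not measured here.

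Because of that level, the protein-coding genes starting within 1 Mb of the start of Mdm2 were read out after its values had been seen. Of 28 such neighbours, 18 averaged under 1 FPKM in the gene tables. Only Slc35e3, which encodes a nucleotide-sugar transporter family protein and starts 35.6 kb away, and Cct2, a chaperonin subunit gene at -646.9 kb on the other side, averaged 100 FPKM or more, as did 4.18% of tested genes. Tested genes had passed the minimum mean level of 1 FPKM, which was not asked of the neighbours, so the 2 shares have unlike bases. Slc35e3 had 546 and 561 FPKM in CIH 1 and 2, against 1635 and 1486 FPKM in control 1 and 2 (log2 change -1.49, limma adjusted p = 0.00263), and 775 FPKM in CIH 3 and 817 FPKM in control 3. It lay beside Mdm2 at the top of the scale but, unlike Mdm2, fell in CIH 1 and 2. Cpm, a carboxypeptidase gene on the other flank, also fell, with 7.78 and 8.57 FPKM in CIH 1 and 2 and 33.4 and 31.9 FPKM in control 1 and 2 (log2 change -1.88, limma adjusted p = 0.000609). Cct2 rose, with 123 and 114 FPKM in CIH 1 and 2 and 90.7 and 89.8 FPKM in control 1 and 2 (log2 change 0.38, limma adjusted p = 0.0168). In the other pair Cct2 was 105 FPKM in CIH 3 and 341 FPKM in control 3. The test of a difference in change between Mdm2 and these neighbours was not made.

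**Figure D2:**
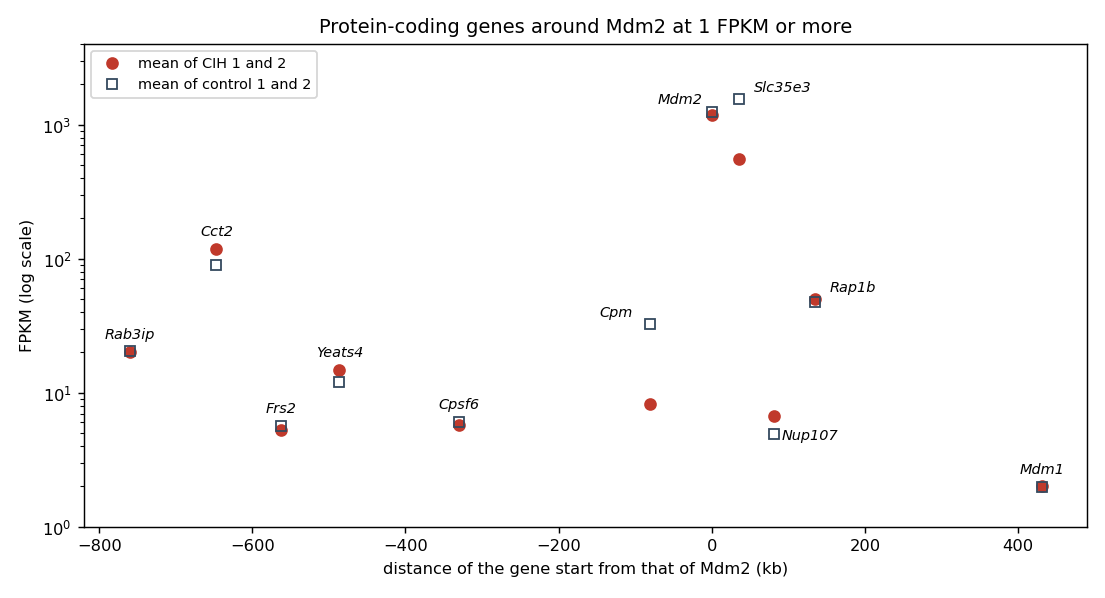
FPKM on a log axis of protein-coding genes within 1 Mb of Mdm2 that reach 1 FPKM, by the distance of their start from that of Mdm2 in kb; filled circles are means of CIH 1 and 2 and open squares means of control 1 and 2. Mdm2 and Slc35e3 stand above the other genes in both groups, and Slc35e3 and Cpm are lower in CIH while Cct2 is higher.

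Cdkn1a (chromosome 17, 29090976 to 29100727, + strand) encodes p21, the inhibitor of cyclin-dependent kinases through which p53 stops the cell cycle. It had 87.2 and 83.7 FPKM in CIH 1 and 2, against 91.1 and 98.1 FPKM in control 1 and 2. The CIH libraries were the lower ones, by less than the test could separate (log2 change -0.14, 95% interval -0.34 to 0.05, adjusted p = 0.189); scaled by library totals, the change was -0.27 with limma adjusted p = 0.0293. In CIH 3 Cdkn1a was 120 FPKM and in control 3 113 FPKM, a log2 difference of 0.09 that turned to -0.20 by the median of ratios. Of its 3 entries in the transcript tables, the main one held 88.9% of the gene in CIH 3 and 95.2% in control 3, and the second was 11.3 FPKM in CIH 3 and 4.45 FPKM in control 3. A transcript of unknown function on the opposite strand, AC167363.2, overlaps Cdkn1a, with at most 1.43 FPKM in the gene tables; whether the counting used strand is not stated.

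Btg2 (chromosome 1, 134075170 to 134079120, - strand), an antiproliferative gene that recruits messenger RNA deadenylases, was lower in CIH in both comparisons. It had 12.8 FPKM in both CIH 1 and CIH 2, against 27.3 and 28.4 FPKM in control 1 and 2, and 7.75 FPKM in CIH 3 against 22.1 FPKM in control 3. No CIH value overlapped its controls, and Btg2 fell 2.09-fold in replicates 1 and 2 (log2 change -1.06, SE 0.07, adjusted p = 0.00115) and was 2.64-fold lower in CIH 3. Its log2 difference in CIH 3 ranged from -1.67 by the median of ratios to -0.82 with scaling by totals. In a fit of all 6 libraries that also modelled the kind of table, the log2 change of Btg2 was -1.17 with limma adjusted p = 0.0484; the limma adjusted p was 0.331 with a replicate block and 0.796 with the group alone.

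Plk2 (chromosome 13, 110395046 to 110400844, + strand), a polo-like kinase first found as a serum-induced gene, was the lowest member in the controls. It had 3.29 and 3.70 FPKM in CIH 1 and 2, against 1.41 FPKM in both control 1 and control 2, from 386 and 456 fragments in CIH and 163 and 177 in the controls. It was 18.9 FPKM in CIH 3 and 1.99 FPKM in control 3. All CIH libraries were above their controls: the rise was 1.86-fold in replicates 1 and 2 (log2 change 0.90, SE 0.08, adjusted p = 0.00237), or 2.48 as a plain ratio of mean FPKM, and the CIH 3 value was 6.67-fold higher, or 9.52 as a plain ratio. Plk2 had the largest log2 difference of the 10 members in CIH 3, at 2.74.

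Ccng1 (chromosome 11, 40748552 to 40755311, - strand), which encodes cyclin G1, a partner of protein phosphatase subunits that acts on Mdm2, had 55.2 and 53.2 FPKM in CIH 1 and 2, against 58.2 and 47.7 FPKM in control 1 and 2. The groups overlapped, with both CIH values between the controls (log2 change 0.04, 95% interval -0.24 to 0.32, adjusted p = 0.805). Ccng1 was 86.3 FPKM in CIH 3 and 62.9 FPKM in control 3.

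Bax (chromosome 7, 45461697 to 45466898, - strand) encodes the pore-forming BCL-2 family protein that permeabilises mitochondria in apoptosis. Bax had 24.5 and 22.8 FPKM in CIH 1 and 2, against 14.4 and 15.6 FPKM in control 1 and 2, and it was 42.4 FPKM in CIH 3 and 21.4 FPKM in control 3. No CIH value overlapped its controls. Bax rose 1.54-fold in replicates 1 and 2 (log2 change 0.62, SE 0.08, adjusted p = 0.00571) and was 1.94-fold higher in CIH 3.

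Bbc3 (chromosome 7, 16308393 to 16318205, + strand) encodes PUMA, a BH3-only protein that frees BAX and BAK for apoptosis. It had 6.86 and 6.18 FPKM in CIH 1 and 2, against 5.69 and 6.63 FPKM in control 1 and 2. These overlap, and the change was not called (log2 change 0.07, 95% interval -0.20 to 0.34, adjusted p = 0.612). In CIH 3 Bbc3 was 19.5 FPKM and in control 3 7.83 FPKM. Its 2 entries kept their proportions in that pair, the larger holding 80.5% of the gene in CIH 3 and 80.9% in control 3.

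Sesn1 (chromosome 10, 41809935 to 41908424, + strand) and Sesn2 (chromosome 4, 132492032 to 132510501, - strand) encode sestrins, stress proteins that hold back the growth kinase complex mTORC1 by binding the GATOR2 complex. Sesn1 had 7.10 and 6.22 FPKM in CIH 1 and 2, against 9.23 and 9.30 FPKM in control 1 and 2, with no overlap. The fall was 1.34-fold (log2 change -0.43, SE 0.09, adjusted p = 0.0208). It lost its call whichever of the 4 libraries was left out, with limma adjusted p = 0.0537 without control 1, 0.0506 without control 2, 0.0531 without CIH 1 and 0.0979 without CIH 2. In the other pair Sesn1 was 38.3 FPKM in CIH 3 and 15.1 FPKM in control 3. Its 2 entries differed there, with 12.0 and 26.3 FPKM in CIH 3 and 8.27 and 6.80 FPKM in control 3, so that the second entry held 68.6% of the gene in CIH 3 and 45.1% in control 3. Sesn2 had 13.4 and 14.7 FPKM in CIH 1 and 2, against 13.4 and 14.9 FPKM in control 1 and 2. The Sesn2 groups overlapped almost fully (log2 change -0.01, 95% interval -0.24 to 0.22, adjusted p = 0.958). It was 17.0 FPKM in CIH 3 and 8.38 FPKM in control 3.

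**Figure D3:**
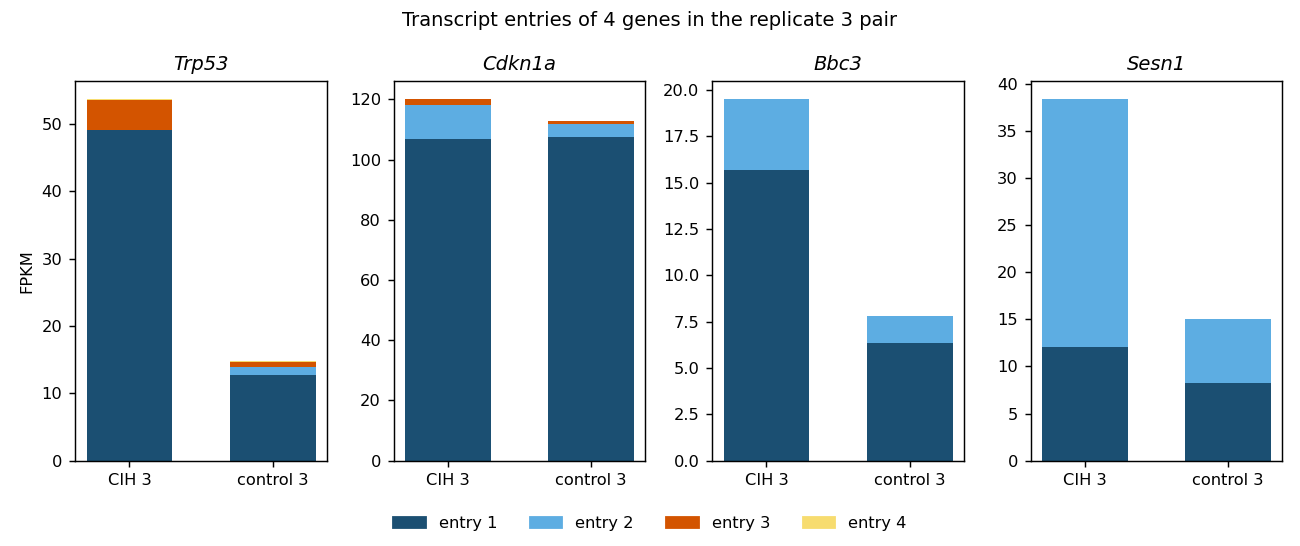
Stacked bars of the transcript entries, in FPKM, of Trp53, Cdkn1a, Bbc3 and Sesn1 in CIH 3 (left) and control 3 (right); colours number the entries of each gene by their level in control 3. One entry makes up most of Trp53 and Cdkn1a in both libraries, while the second entry of Sesn1 holds 68.6% in CIH 3 and 45.1% in control 3.

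Ordered by level per length, the means of CIH 1 and 2 ran from Mdm2 (1191 FPKM) through Cdkn1a (85.5), Ccng1 (54.2), Bax (23.6), Trp53 (21.5), Sesn2 (14.1), Btg2 (12.8), Sesn1 (6.66) and Bbc3 (6.52) down to Plk2 (3.49 FPKM). In control 1 and 2 the order was Mdm2 (1252 FPKM), Cdkn1a (94.6), Ccng1 (53), Btg2 (27.8), Bax (15), Sesn2 (14.1), Trp53 (11.7), Sesn1 (9.27), Bbc3 (6.16) and Plk2 (1.41 FPKM). Btg2 thus stood above Bax, Sesn2 and Trp53 in the controls and below all of them in CIH. Neighbours whose libraries overlapped, and which are not ordered beyond their spread, were Sesn1 and Bbc3 in CIH and Bax and Sesn2 in the controls.

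**Figure D4:**
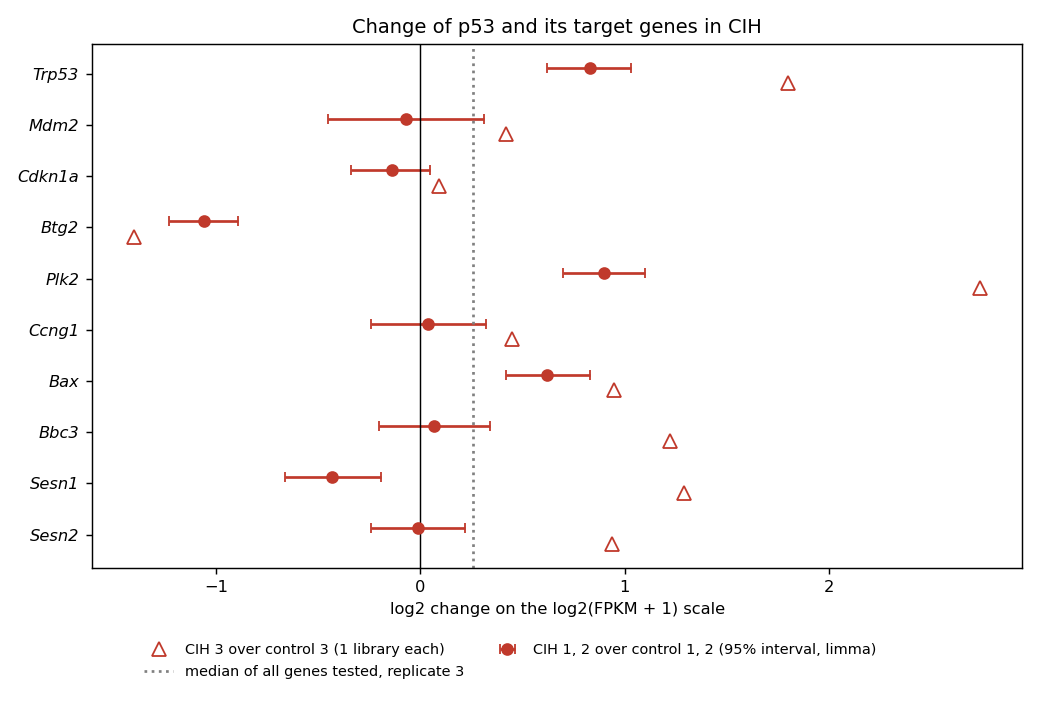
Log2 change of each member on the log2(FPKM + 1) scale, as circles with 95% intervals for CIH 1 and 2 over control 1 and 2 and as open triangles for CIH 3 over control 3; the dotted line is the median of all tested genes in the replicate 3 pair, 0.26. Every triangle except those of Btg2 and Cdkn1a lies to the right of the dotted line.

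Beyond these 10 genes, 32 other genes known as p53 targets were listed, of which 30 were tested. In CIH 1 and 2, 13 rose, 5 fell and 12 were not called, with a median log2 change of 0.14; of all tested genes 18.2% rose and 20.9% fell, the shares against which every list below is to be read. On the log2(FPKM + 1) scale the largest rises were in Gtse1, a microtubule-binding protein of G2 phase that binds p53, with 3.74 and 4.52 FPKM in CIH 1 and 2 and 0.751 and 0.717 FPKM in control 1 and 2 (2.95-fold, adjusted p = 0.00112), in the spindle gene Ckap2 (2.66-fold, adjusted p = 0.00172) and in Sulf2, a heparan sulfatase (2.20-fold, adjusted p = 0.00188). As a plain ratio of mean FPKM, Eda2r, a receptor of the tumour necrosis factor family, stood above Sulf2, at 5.17 against 2.67. Eda2r had 1.51 and 1.52 FPKM in CIH 1 and 2, and 0.27 and 0.315 FPKM in control 1 and 2 (1.94-fold, adjusted p = 0.000763). Gdf15 also stood above Sulf2 by that ratio, at 2.8 (2.02-fold, adjusted p = 0.00392). It was 0.68 FPKM in CIH 3 and 0.793 FPKM in control 3. Gtse1 and Ckap2 are also known as genes of dividing cells. As deposited, both were also higher in CIH 3, at 2.08 and 6.24 FPKM, against 0.613 and 0.644 FPKM in control 3. So were Sulf2 and Eda2r, at 70.7 and 17.4 FPKM in CIH 3 against 16.6 and 1.66 FPKM in control 3. Phlda3, Rps27l, Triap1 and Dram1 rose in CIH 1 and 2 but were lower in CIH 3 (log2 differences -0.88, -0.83, -0.82 and -1.04). Zmat3, Gadd45a, Ephx1 and Aen rose too and were higher in CIH 3 as deposited (1.17, 1.55, 0.41 and 0.09). The largest falls were in Ddit4, an inhibitor of mTORC1 that hypoxia-inducible factors also induce, with 20.6 and 21.6 FPKM in CIH 1 and 2 and 80.6 and 107 FPKM in control 1 and 2 (4.24-fold, adjusted p = 0.00137), in Trp53inp1, a p53 cofactor of stress responses (3.35-fold, adjusted p = 0.00157), and in the tetraspanin Cd82 (2.14-fold, adjusted p = 0.00391). As deposited, none of these 3 genes was lower in CIH 3, before the shift of 0.26 over all genes: Ddit4 was 15.5 FPKM in CIH 3 and 10 FPKM in control 3, Trp53inp1 98.8 FPKM in CIH 3 and 88.7 FPKM in control 3, and Cd82 20 FPKM in CIH 3 and 10.8 FPKM in control 3. In CIH 3, 9 of the 30 were at least 2-fold higher than in control 3 and 4 at least 2-fold lower, with a median log2 difference of 0.59.

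Regulators and relatives of p53 formed a list of 24: of 22 tested, 2 rose, 4 fell and 16 were not called, with a median log2 change of -0.07. Cdkn2a, whose ARF product inhibits Mdm2 and whose other product is the kinase inhibitor p16, had 128 and 119 FPKM in CIH 1 and 2, against 81.0 and 89.2 FPKM in control 1 and 2 (1.45-fold, adjusted p = 0.0102), and 218 FPKM in CIH 3 against 114 FPKM in control 3. Both products are counted under 1 gene ID. The other rise was in the checkpoint kinase gene Chek1 (1.45-fold, adjusted p = 0.00327). Chek1 was also higher in CIH 3, at 3.21 FPKM against 0.802 FPKM in control 3. Mdm4, the relative of Mdm2 that blocks p53 as a transcription factor, fell 1.35-fold in CIH 1 and 2 (adjusted p = 0.0446), with 2.81 and 3.65 FPKM against 4.84 and 4.49 FPKM in control 1 and 2; it was 45.5 FPKM in CIH 3 and 23.8 FPKM in control 3. Ppp1r13l, which encodes the p53 inhibitor iASPP, fell 1.64-fold (adjusted p = 0.00454), Trp53bp2, which encodes ASPP2, 1.44-fold (adjusted p = 0.0112), and Pml, the core of nuclear bodies, 1.39-fold (adjusted p = 0.0144). As deposited, these 3 were higher in the other pair, by little over that shift for Ppp1r13l and Trp53bp2 (log2 differences of 0.30 each): Ppp1r13l with 3.18 FPKM in CIH 3 and 2.4 FPKM in control 3, Trp53bp2 with 13 FPKM in CIH 3 and 10.3 FPKM in control 3, and Pml with 11.7 FPKM in CIH 3 and 4.62 FPKM in control 3. The family relatives Trp63, at 0.135 and 0.155 FPKM in CIH and 0.0834 and 0.192 FPKM in the controls of the gene tables, and Trp73, at 0 in all 4, were below the level tested.

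In the BCL-2 family, which holds the partners of BAX and PUMA, 3 of 10 tested genes rose and 3 fell in CIH 1 and 2. Bid, a BH3-only activator of BAX, rose 1.97-fold (adjusted p = 0.00146) and the survival genes Bcl2 and Mcl1 rose 1.21-fold and 1.18-fold (adjusted p = 0.0174 and 0.0386); Mcl1 was 39.6 FPKM in CIH 3 and 50.1 FPKM in control 3. Bok fell 1.97-fold (adjusted p = 0.00311), and the BH3-only genes Bcl2l11, which encodes BIM, and Bmf fell 1.58-fold and 1.55-fold (adjusted p = 0.00359 and 0.00412). In the other pair Bcl2l11 was 54.2 FPKM in CIH 3 and 5.76 FPKM in control 3, and Bmf 42.3 FPKM in CIH 3 and 3.86 FPKM in control 3. Both were thus higher in CIH 3 and lower in CIH 1 and 2 than in their controls. As deposited, Bid and Bcl2 were also higher in CIH 3, at 25.5 and 6 FPKM, against 12 and 2.39 FPKM in control 3. Bok was also lower there, at 4.53 FPKM in CIH 3 against 18.6 FPKM in control 3.

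Among the G1 cyclins, their kinases and the other kinase inhibitors, which act beside p21, 6 of 18 tested genes rose, 6 fell and 6 were not called. Ccnd1, cyclin D1, had 8.20 and 9.45 FPKM in CIH 1 and 2, against 1.97 and 2.07 FPKM in control 1 and 2 (3.25-fold, adjusted p = 0.00094), and 51.2 FPKM in CIH 3 against 1.84 FPKM in control 3. Ccna2, cyclin A2 of S phase, rose 2.24-fold (adjusted p = 0.00282), and was 7.52 FPKM in CIH 3 against 0.784 FPKM in control 3. The kinase inhibitor gene Cdkn2a, given above, also rose. Its relative Cdkn2b rose 1.45-fold (adjusted p = 0.0255), with 46.4 FPKM in CIH 3 against 8.48 FPKM in control 3. Cdkn2d fell 1.2-fold (adjusted p = 0.0423), with 9.21 FPKM in CIH 3 against 6.03 FPKM in control 3. Cdkn2c was not called, and was 18.2 FPKM in CIH 3 against 149 FPKM in control 3. Rbl2, a retinoblastoma relative, fell 1.6-fold (adjusted p = 0.00443), Cdkn1b, the p21 relative p27, 1.57-fold (adjusted p = 0.00667), and Cdk6 1.41-fold (adjusted p = 0.0274). As deposited, all 3 were higher in the other pair, Rbl2 with 24.9 FPKM in CIH 3 and 13.7 FPKM in control 3, Cdkn1b with 97.9 FPKM in CIH 3 and 24.4 FPKM in control 3, and Cdk6 with 44.9 FPKM in CIH 3 and 23.5 FPKM in control 3.

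Paralogs of the members did not share one direction in CIH 1 and 2: 3 of 9 tested rose, 3 fell and 3 were not called. Sesn3, the third sestrin, had 6.20 and 7.35 FPKM in CIH 1 and 2, against 4.33 and 4.27 FPKM in control 1 and 2 (1.46-fold, adjusted p = 0.0147), where Sesn1 fell; it was 132 FPKM in CIH 3 and 29.0 FPKM in control 3. The mitotic kinase gene Plk1 rose 2.07-fold (adjusted p = 0.00503) and Plk4 of centriole duplication 1.21-fold (adjusted p = 0.0235). Tob2 and Btg1, antiproliferative relatives of Btg2, fell 1.42-fold and 1.33-fold (adjusted p = 0.00984 and 0.0114), and Ccng2, the relative of Ccng1, fell 1.37-fold (adjusted p = 0.00704). As deposited, Plk1 and Plk4 were also higher in CIH 3, at 2.7 and 4.54 FPKM, against 1.44 and 1.78 FPKM in control 3. Tob2, Btg1 and Ccng2 were also lower in CIH 3, at 8.77, 81.6 and 53.3 FPKM, against 50.4, 224 and 61.7 FPKM in control 3.

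Of the 8 GATOR1 and GATOR2 subunits, through which sestrins act, 0 rose and 2 fell, Depdc5 by 1.28-fold (adjusted p = 0.026) and Seh1l by 1.22-fold (adjusted p = 0.0467). Depdc5 was 14.3 FPKM in CIH 3 and 17.4 FPKM in control 3, while Seh1l was 18.8 FPKM in CIH 3 and 17.4 FPKM in control 3. ATF4, a stress factor that is known to induce Sesn2 and has a list of 5 genes here, was not called in CIH 1 and 2. Its partner Ddit3, which encodes CHOP, rose 1.52-fold (adjusted p = 0.00471), while Chac1 and Asns fell 1.90-fold and 1.37-fold (adjusted p = 0.00164 and 0.0113). As deposited, Ddit3 was also higher in CIH 3, at 180 FPKM against 55.9 FPKM in control 3. Chac1 and Asns were also lower in CIH 3, at 11.2 and 67 FPKM, against 23.1 and 77.3 FPKM in control 3.

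**Figure D5:**
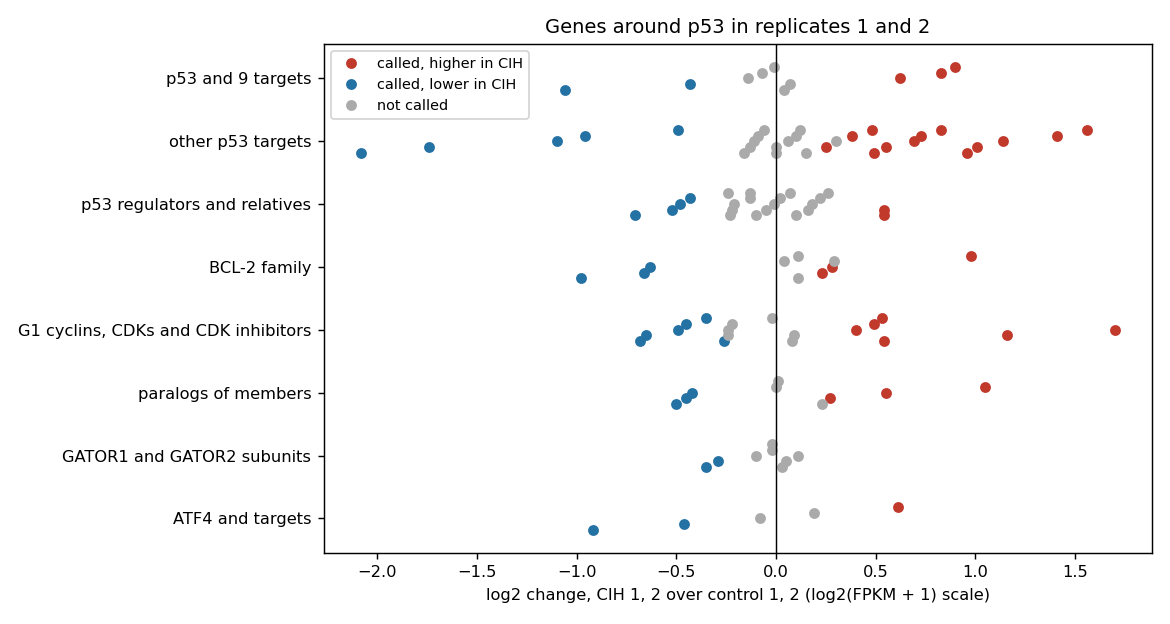
Log2 change of each tested gene in CIH 1 and 2 over control 1 and 2 on the log2(FPKM + 1) scale, 1 row per gene list; red points were called higher, blue points lower and grey points not called. In the GATOR list 2 genes fell and 0 rose; in each of the other 7 lists drawn, genes called in both directions appear.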

How the data were processed

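Gene expression of 3T3-L1 cells was deposited in 6 tables and is given here as FPKM, a unit read from the values because the file headers name only the sample. The check on whole fragments below covers the gene tables alone. For CIH 3 and control 3 the unit is therefore assumed. The submitters' processing notes list GRCm38, featureCounts 1.5.0-p3 and DESeq 1.8.3 without their roles; no aligner is named there. The gene tables hold 54532 genes; the transcript tables hold 50660 entries for 21950 gene IDs, which were summed per gene. FPKM times exon length (GENCODE M21) lay within 0.05 of a whole fragment for 98.4% to 98.6% of genes under 50 fragments in the gene tables, which gives their depth and the members' fragments. Counting precision is limited by these fragments.

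Genes listed in all 6 libraries with a mean of at least 1 FPKM were tested on log2(FPKM + 1) with the moderated test of limma 3.58.1 under R 4.3.3, with a mean-variance trend, in replicates 1 and 2, with Benjamini-Hochberg adjustment over all 10976 genes and calls at an adjusted p under 0.05; every adjusted p given is from this fit unless another is named. The script was tested on simulated data. CIH 3 against control 3 has 1 library a group and no p-value. Members and lists were chosen with earlier results of these data known. Named genes were all members, the called genes with the largest change of each list, up to 3 each way, and Mdm4, Cdkn2a, Trp63, Trp73 and Sesn3. Genes around Mdm2, Eda2r, Gdf15, Cdkn2b, Cdkn2c and Cdkn2d were picked after their values were seen. So were further p53 targets named for their CIH 3 values, and CIH 3 values of list genes, such as those of Bcl2l11 and Bmf. Promoters came from RefSeq (GRCm38.p6), and Python 3.11.15 served for everything else. Alternatives were other pseudocounts, filters, scalings, blocks, left-out libraries and fits of all 6 libraries.

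Replicate numbers are shared by the groups. The labels state no pairing. Over all 6 libraries, deviations from the group means correlated at 0.529, 0.587 and 0.581 between same-numbered libraries, all over 0.1. Libraries numbered 3 are another kind of table in both groups, so every such deviation also holds the gap between the kinds. These correlations therefore cannot show a pairing. Over the 4 gene-table libraries the correlation was -0.178.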

Additional observations from a re-analysis of the deposited data

How the results depend on the processing

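In CIH 1 and 2, the counts of 3 members higher and 2 lower held with pseudocounts of 0.1 and 0.5, without a filter on low values, with all genes of the gene tables, by the median of ratios, by the upper quartile and without a trend; scaled by totals, 3 were lower, Cdkn1a being the third. With a replicate block the counts were 3 and 2, with 3332 genes called in all against 4292, and the block changed no other call of a member; the crossed block, chosen after seeing the data, gave 3 and 2, with 4510 genes. Leaving out 1 library kept 3 higher, left 1 lower each time (1 to 1) and called 1865 (without CIH 1), 2316 (without CIH 2) or up to 3682 genes in all. Fitting all 6 libraries called 0 members higher and 0 lower with the group alone, and 0 of all genes (limma; 490 genes and 2 members at an unadjusted p under 0.05), and again 0, 0 and 0 with the replicate block (1123 genes and 4 members unadjusted). When the kind of table was modelled too, it called 0 members higher, 1 lower and 63 genes. In these fits of 6 libraries the log2 change of Sesn1 was 0.15, against -0.43 in replicates 1 and 2, since Sesn1 was higher in CIH 3. An interaction of group and kind of table, added after seeing the data, is not given, as its spread came from the gene tables alone. In CIH 3, scaling by totals put 8 members at least 2-fold higher and 0 at least 2-fold lower, against 42.3% and 6.11% of all genes. By the median of ratios these were 3 and 1, against 16.3% and 15.7% of all genes. With a pseudocount of 0.1 they were 5 and 1, against 24.9% and 12.8%. With 2 libraries a group and unknown depth in the replicate 3 pair, changes of the 5 members not called were bounded only by their intervals.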
